A study of Schmidtea mediterranea with 36 samples.

Results

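Of the 26558 transcripts measured, 200 were taken whose level was highest in X2 alone. X2 is one of 3 populations of planarian cells that were sorted by FACS on a DNA dye (Hoechst) and a dye of the cytoplasm (Calcein-AM). The X2 gate takes stem cells in G0/G1 phase and the progeny of stem cells, the X1 gate takes cycling stem cells with replicating or doubled DNA, and Xins is the gate of differentiated cells, which remains after irradiation. Each population was sorted from the asexual biotype of Schmidtea mediterranea after 1, 7 or 30 days without food (1dS, 7dS and 30dS), which gave 9 groups of 4 replicates and 36 libraries. The labels give no transgene, RNAi treatment or drug for any group, and the planarians had been fed veal liver before starvation began. A gate is not a cell type, and X2 mixes stem cells with their progeny. The labels do not say that replicates of a group were separate cultures, and p-values reflect only how far these samples spread.

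To choose the members, the values of every library were scaled to sum to 1000000 TPM, which makes libraries of separately normalized tables comparable, and log2(TPM + 1) was averaged over the 12 libraries of each population. Among the 6694 transcripts with an X2 mean of at least 10 TPM, 1384 had their highest mean in X2. The 200 members are those with the largest margin, that is the X2 mean log2 level minus the higher of the X1 and Xins means. Levels in all 36 libraries thus chose the members, and every comparison of levels between populations is a description without a test. The rule took the mean over the 3 times and did not use the change between them. A transcript high in X2 at only some of the times can still enter the list, so changes within X2 are not fully independent of the choice.

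Stem cells of planarians, called neoblasts, are the only dividing cells of the adult body and renew every tissue. Their progeny stop dividing and pass through progenitor states, which are transient and lie between the stem cell and the differentiated cell. Starved planarians shrink, while stem cells go on dividing and the animals can still regenerate.

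The deposited values are transcript abundances in TPM, normalized by the authors within each population. They keep no depth, so no counting error can be given. Their sums ranged between 638389 and 1935392 per library. One library stood apart, X2 at 1dS replicate 1, which listed 10378 transcripts at 0. The next, X2 at 1dS replicate 3, listed 7479 at 0, and the other 34 listed at most 6092. Results in X2 against 1dS are therefore also given without that library. As a check of the gates, cdk1, a kinase needed for mitosis, lay at no more than 9.34 rescaled TPM in any X2 library, against at least 38.4 in every X1 library and at most 0.2695 in any Xins library. No marker of stem cell progeny could be matched to an identifier from the sources used here, so the progeny in X2 were not checked.

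The members covered a wide range of levels. Their X2 means lay between 10.1 and 15285 TPM with a median of 47.3 TPM, 61 of them reached 100 TPM and the 10 most abundant had means of at least 1039 TPM. Margins lay between 0.97 and 5.11 on the log2 scale, with a median of 1.58. They were at least 2 for 64 members, at least 3 for 21 and at least 4 for 9. X1 was the second highest population for 128 members and Xins for 72. The median member stood in X1 at 24.9% of its X2 level, with a range of 1.71% to 77.9%, and in Xins at 16.3%, with a range of 0.354% to 52.1%. All 12 X2 libraries lay above all 24 libraries of X1 and Xins for 89 members, and without X2 at 1dS replicate 1 the other 11 did so for 92.

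**Figure D1:**
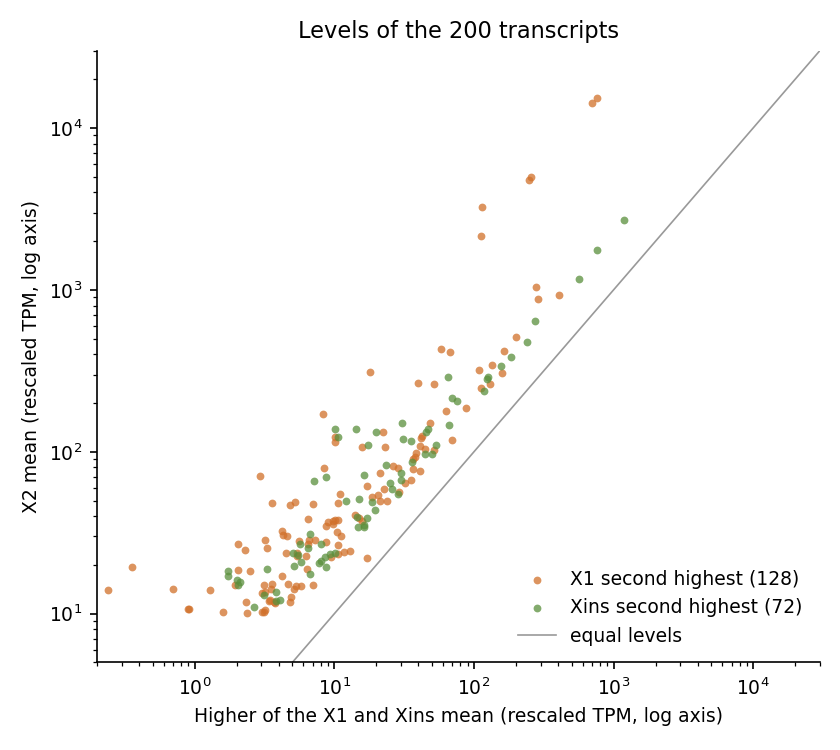
Mean level in X2 against the higher of the X1 and Xins means for the 200 transcripts, in rescaled TPM on log axes, with 1 point per transcript, coloured by the population that came second, where the grey line marks equal levels. Members lie above the line by the rule, and among the abundant members 6 with X2 means between 2144 and 15285 TPM stand apart from it.

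The 6 members with the largest margins were among the 7 most abundant of the 200. No gene name is paired with them in the sources used here, and they are called here by the component number of their identifier (comp478 is dresden_comp478_c0_seq1). comp478 led with a margin of 5.11. Its rescaled level ran over 1888 to 5056 with a median of 3211 TPM in X2, over 34.5 to 324 with a median of 88.1 TPM in X1 and over 7.15 to 75.5 with a median of 14.2 TPM in Xins. Every X2 library lay above every library of X1 and Xins. comp332 followed with a margin of 4.65, and levels of 881 to 3103 with a median of 2345 TPM in X2, 26.6 to 344 with a median of 72.4 TPM in X1 and 3.65 to 52.7 with a median of 7.98 TPM in Xins.

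comp61 and comp69 were the most abundant of all members. comp69 lay at 8355 to 20043 with a median of 14358 TPM in X2, at 209 to 1857 with a median of 592 TPM in X1 and at 25.9 to 270.3 with a median of 88.9 TPM in Xins. comp61 lay at 8569.7 to 22569 with a median of 14534 TPM in X2, at 257 to 1944 with a median of 567 TPM in X1 and at 31.7 to 214 with a median of 94.8 TPM in Xins. The lowest X2 library of each lay above every X1 and Xins library. comp363 and comp213 followed with X2 means of 4753 ± 1069 and 4948 ± 1166 TPM (SD, n = 12).

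The 6 leaders were present in X1 at similar shares of their X2 levels. These shares were 3.47% for comp478, 5.23% for comp332, 4.91% for comp69, 4.97% for comp61, 5.25% for comp363 and 5.15% for comp213. In Xins the shares were 0.583%, 0.554%, 0.675%, 0.6999%, 1.55% and 0.674% in the same order. Summed, the 6 stood in X1 at 7.72% of their X2 level at 1dS, 4.17% at 7dS and 2.49% at 30dS. In Xins they stood at 0.836%, 0.79% and 0.667% of it at the same times. For the remaining members these shares were 34%, 30.3% and 26.98% in X1. How much of the level in X1 and Xins came from cells of the X2 kind within those gates was not tested.

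A gene name was available for 150 of the 26558 transcripts, chosen by the study for other questions, and only 2 of the 200 members are among them. The names are those of matches in other species. comp13521 is named P4HB, in human a protein disulfide isomerase of the endoplasmic reticulum and the beta subunit of prolyl 4-hydroxylase. In normalized TPM it stood in X2 at 15.1, 10.9, 13.1 and 14.6 at 1dS, at 10.7, 15.2, 9.35 and 17.6 at 7dS and at 15.4, 15.4, 11.1 and 18.5 at 30dS. The 3 groups of libraries overlapped, and the log2 change was -0.05 ± 0.23 (SE, limma adjusted p = 0.923) at 7dS and 0.15 ± 0.23 (SE, limma adjusted p = 0.698) at 30dS. On rescaled libraries these changes were 0.34 and 0.58, so the sign at 7dS depends on the scale. In X1 it stood at 1.17, 1.37, 1.12 and 2.08 at 7dS, against 2.39, 2.48, 2.16 and 2.702 at 1dS. No X1 library of 7dS reached the lowest of 1dS, but the change of -0.51 ± 0.18 (SE, limma adjusted p = 0.105, exact permutation p = 0.0286) missed the threshold across all transcripts.

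comp3506 is named PDIA5, another protein disulfide isomerase, an enzyme family that forms and rearranges disulfide bonds in secreted proteins. It was close to the end of the list with a margin of 1.03. In X2 it stood at 47.1, 67.1, 45.9 and 61.6 normalized TPM at 1dS, 25.2, 40.2, 42.9 and 80.96 at 7dS and 30.7, 37.7, 30.98 and 50.8 at 30dS. The groups overlapped at 7dS and at 30dS, with log2 changes of -0.33 ± 0.31 (SE, limma adjusted p = 0.531) and -0.56 ± 0.31 (SE, limma adjusted p = 0.24) relative to 1dS. On rescaled libraries they were 0.08 and -0.11, so here too the sign at 7dS depends on the scale. In X1 comp3506 stood at 17.1, 8.62, 11.2 and 22.7 at 30dS, against 44.2, 24.9, 22.9 and 17.6 at 1dS, and the groups overlapped. Both genes are named because they belong to protein folding lists that the study drew from these X1 libraries. The study called P4HB lower in X1 at 7dS and PDIA5 lower in X1 at 30dS than at 1dS.

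The gene lists of the study, on protein folding and protein synthesis, held few of the members. Members are also few among all transcripts, 200 of 26558, and at that share lists of this length would hold few or none. The counts that follow are thus not read as a trait of the members. None of the 8 subunits of TRiC, the chaperonin of the cytosol, is a member. 7 of the 8 had their highest mean in X1 and the other had an X2 margin of 0.18. None of the 13 genes of the unfolded protein response and the endoplasmic reticulum is a member, although 7 of them had their highest mean in X2, with a largest margin of 0.67. None of the 34 transcripts of tRNA aminoacylation and none of the 40 of the translation complex is a member, and 26 and 29 of these had their highest mean in X1. Of 41 transcripts of protein folding that the study lists as lower in X1 at 7dS than at 1dS, 1 is a member (P4HB). Of 21 that it lists as lower in X1 at 30dS than at 1dS, 1 is a member (PDIA5). A list of protein folding from cct3A RNAi planarians, taken from other libraries, held 0 members among 34, and that of transcription elongation 0 among 3.

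The threshold of the list fell where transcripts lay close together. The last members were comp6020 with a margin of 0.98, comp7489 with 0.97 and comp597 with 0.97. The first transcripts left out were comp853 with 0.97, comp3299 with 0.97 and comp7768 with 0.96. comp6020, which carries the annotation protein autophosphorylation, averaged 63.9 TPM in X2, against 32.1 TPM in X1 and 0.929 TPM in Xins. comp7489 averaged 15 TPM in X2, 6.99 in X1 and 4.37 in Xins, and comp597 averaged 76.4, 40.8 and 20.8 TPM. comp853, just outside, averaged 288 TPM in X2, 143 in X1 and 130.0 in Xins, comp3299 121, 53.4 and 62.4, and comp7768 38.6, 17.4 and 19.8 TPM. Members and transcripts on either side of the threshold thus had almost the same margin.

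The members share little beyond their levels in the sources used here. The transcriptome groups transcripts that may come from one gene into components. The 200 members came from 200 components, and for 6 of them the tables hold another transcript of the component, which holds for 1.19% of all transcripts. Within X2 the median member varied between the 4 replicates with a coefficient of variation of 33.8% at 1dS, 31.1% at 7dS and 25.5% at 30dS, against 36.5%, 30.2% and 28.2% for all transcripts at or above the minimum level. In X2, 2 members were listed at 0 in a library, comp18079 and comp25455, both in 1dS replicate 1, and 1 member was so in X1 and 7 in Xins. comp25455 is named for this reason, after its values were seen.

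The excess in X2 was seen at each time but was smallest shortly after feeding. The X2 mean was the highest of the 3 populations for 193 members at 1dS and for 200 at 7dS and at 30dS. All 4 X2 libraries lay above all 8 libraries of X1 and Xins for 127 members at 1dS, 157 at 7dS and 165 at 30dS. Without X2 at 1dS replicate 1, the other 3 libraries of 1dS did so for 131. The median margin was 1.28 at 1dS, 1.70 at 7dS and 1.91 at 30dS. These times entered the choice together, so the order of the medians is a description.

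In 7 members X2 was not the highest population at 1dS and became so with starvation. For each of them Xins came second over the 36 libraries. comp1213 had margins of -0.83 at 1dS, 1.17 at 7dS and 2.76 at 30dS, while those of comp7616 were -0.32 at 1dS, 0.49 at 7dS and 3.25 at 30dS. comp766 had margins of -0.25 at 1dS, 2.07 at 7dS and 3.21 at 30dS. The margins of comp1882 were -0.24 at 1dS, 1.90 at 7dS and 2.23 at 30dS, while comp1731 had -0.07 at 1dS, 1.82 at 7dS and 1.23 at 30dS. comp372 had the widest course, with -0.06 at 1dS, 1.81 at 7dS and 4.90 at 30dS. comp4166 had almost equal means in X2 and Xins at 1dS, and margins of 1.25 at 7dS and 2.72 at 30dS. comp766, comp1882, comp1731 and comp4166 are named for this pattern after their values were seen. Their place in the list rests on 7dS and 30dS.

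Together the 200 members took a larger part of X2 libraries than of any other. Their summed level was 7.24 ± 1.08% of the library (mean ± SD, n = 4 each) in X2 after 1 day, 6.099 ± 0.445% after 7 days and 7.38 ± 1.15% after 30 days. Per library it was 6.98, 8.48, 7.58 and 5.91% at 1dS, 5.76, 6.55, 6.41 and 5.68% at 7dS and 6.62, 8.004, 8.68 and 6.23% at 30dS. The times overlapped, and no order among them exceeded the spread. The sum was 1.14 ± 0.212%, 0.901 ± 0.0805% and 0.826 ± 0.1498% in X1 at 1dS, 7dS and 30dS, and 0.744 ± 0.202%, 0.714 ± 0.166% and 0.736 ± 0.188% in Xins.

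**Figure D2:**
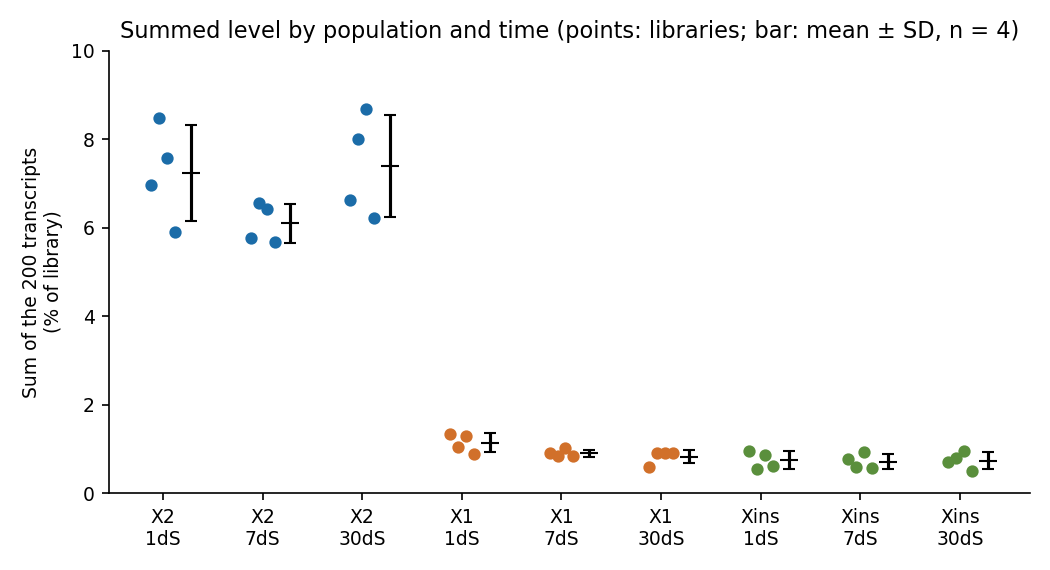
Summed level of the 200 transcripts as percent of each library, by population and days of starvation, with 1 point per library and a bar for the mean with its SD. X2 libraries lie between 5.68% and 8.68%, X1 libraries between 0.601% and 1.34% and Xins libraries between 0.501% and 0.959%.

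The 6 leaders made up most of this sum in X2 and a smaller part of it in X1. They took 5.03 ± 0.876% of X2 libraries at 1dS, 3.63 ± 0.5297% at 7dS and 4.76 ± 0.979% at 30dS. The remaining members took 2.204 ± 0.236%, 2.47 ± 0.236% and 2.62 ± 0.205% of the same libraries. In X1 the leaders took 0.562, 0.284, 0.432 and 0.275% at 1dS, 0.133, 0.137, 0.146 and 0.189% at 7dS and 0.0731, 0.1103, 0.0747 and 0.217% at 30dS. Each X1 library of 7dS and of 30dS lay below each of 1dS. The remaining members took 0.749 ± 0.104%, 0.7497 ± 0.0915% and 0.707 ± 0.135% of X1 libraries at the 3 times, within the spread between replicates.

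Within X2, the question is how the level of these transcripts changed with starvation. At 7dS, 27 members rose and 13 fell compared to 1dS at a limma adjusted p of 0.1. That is 13.5% and 6.5% of the 200, where 9.56% and 6.79% of the 15003 transcripts tested in X2 rose and fell. At 30dS, 30 rose and 14 fell, or 15% and 7%, against 12.5% and 8.19% of all tested. A log2 change of at least 1 upward was seen in 21 members at 7dS and 25 at 30dS, and of at least 1 downward in 9 and 11. The median log2 change of the members was -0.12 at 7dS and -0.09 at 30dS, that of all transcripts tested 0.05 and 0.04. Members had to reach 10 TPM in X2, and of the 6694 transcripts at that level 8.2% rose and 10.8% fell at 7dS, with a median of -0.12, and 8.95% rose and 13.3% fell at 30dS, with a median of -0.15. More members thus rose than fell, while more transcripts of that level fell than rose, a description without a test. The rule could admit members through their starved levels, as with the 7 not highest in X2 at 1dS. This contrast is therefore not independent of the choice. Both comparisons use the same 1dS libraries and are given side by side. In sorted bulk samples, fewer cells of a kind and less RNA per cell cannot be told apart.

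The split of these counts and the sign of the median depend on the scale. Rescaling each library to 1000000 shifts the median of all transcripts tested to 0.36 at 7dS and 0.39 at 30dS, and the members then split into 38 higher and 4 lower at 7dS and 45 higher and 3 lower at 30dS, with medians of 0.29 and 0.35. After quantile normalization the splits were 34 and 10 at 7dS, and 38 and 9 at 30dS. Without X2 at 1dS replicate 1, 19 members rose and 8 fell at 7dS, and 25 rose and 10 fell at 30dS. Without X2 at 1dS replicate 4, 34 rose and 33 fell at 7dS, and 32 rose and 37 fell at 30dS. The total at 7dS was 25 without X2 at 7dS replicate 1 or replicate 2, and that at 30dS was 29 without X2 at 30dS replicate 1. The shares of all transcripts called under these alternatives are not given here, so these counts are not read as a trait of the members.

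The other gates' transcripts moved in X2 over the same times. Of the 200 transcripts that the same rule gives for X1, 196 were tested in X2, and 134 of them fell and 1 rose at 7dS, and 120 fell and 1 rose at 30dS. Their sum took 0.537 to 0.891% of X2 libraries at 1dS, 0.257 to 0.337% at 7dS and 0.411 to 0.452% at 30dS. Of the 200 that it gives for Xins, 165 were tested, and 61 rose and 2 fell at 7dS, and 62 rose and 2 fell at 30dS. Their sum took 0.109 to 0.2104% of X2 libraries at 1dS, 0.268 to 0.456% at 7dS and 0.238 to 0.477% at 30dS. cdk1 lay in X2 at 6.58 to 9.34 rescaled TPM at 1dS, 1.202 to 3.101 at 7dS and 2.37 to 3.96 at 30dS. The part of these shifts in the changes of the members was not tested.

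Members that had Xins as the second highest population gave most of the rises in X2. Of these 72, 18 rose and 2 fell at 7dS (25% and 2.78%), and 19 rose and 4 fell at 30dS (26.4% and 5.56%). Of all 15003 transcripts tested in X2, 9.56% rose and 6.79% fell at 7dS, and 12.5% and 8.19% at 30dS. Of the 128 members with X1 second, 9 rose and 11 fell at 7dS (7.03% and 8.59%), and 11 rose and 10 fell at 30dS (8.59% and 7.81%). The median log2 change at 7dS was 0.20 with Xins second and -0.20 with X1 second. Of the 61 members at 100 TPM or more in X2, 4 rose and 7 fell at 7dS (6.56% and 11.5%), and of the 139 below it 23 rose and 6 fell (16.5% and 4.32%). These counts are descriptions, since the splits use levels of the same libraries. The 7 members that were not highest in X2 at 1dS all had Xins second and entered the list through the starved times. The rises with Xins second are thus not independent of the choice.

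**Figure D3:**
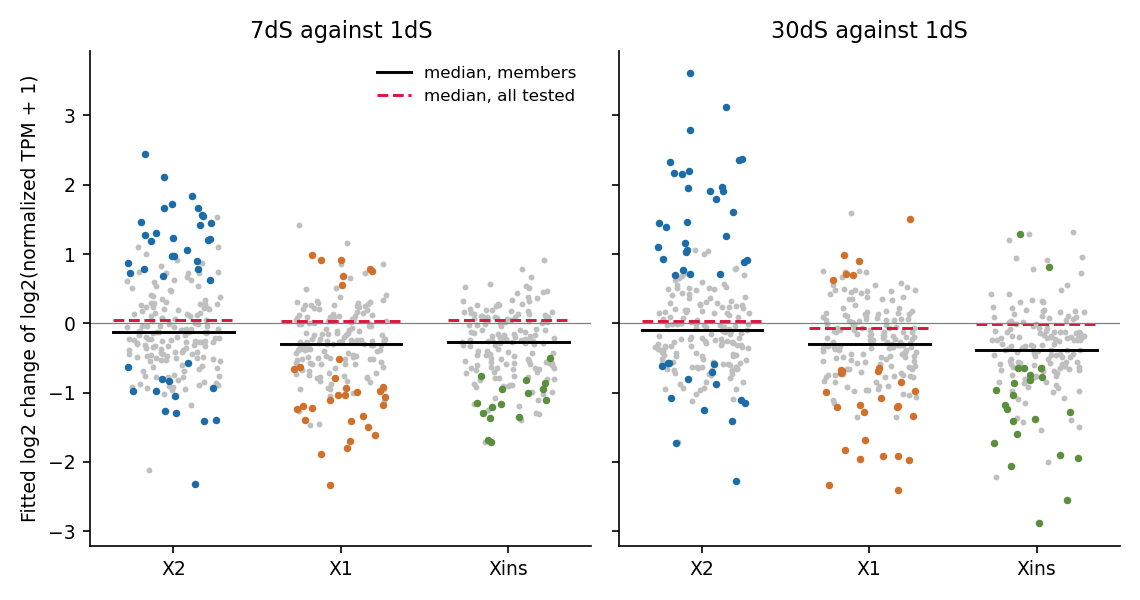
Fitted log2 change of each member within X2, X1 and Xins at 7dS (left) and 30dS (right) against 1dS, on the scale log2(normalized TPM + 1), with 1 point per transcript tested. Coloured points passed a limma adjusted p of 0.1, and horizontal bars mark the median of the members (solid) and of all transcripts tested (dashed). In X2 coloured points lie mostly above 0, in X1 and Xins mostly below it.

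The largest rise at both times was that of comp372. It stood in X2 at 3.11, 17.7, 21.4 and 32.2 normalized TPM at 1dS, 56.7, 94.4, 167 and 52.8 at 7dS and 142, 154, 321 and 177 at 30dS. Every library of 7dS and 30dS lay above every library of 1dS, and the lowest value was in the library that stood apart. The log2 change was 2.44 ± 0.57 (SE, limma adjusted p = 0.0228, exact permutation p = 0.0286) at 7dS and 3.61 ± 0.57 (SE, limma adjusted p = 0.0032, exact permutation p = 0.0286) at 30dS, where 0.0286 is the smallest p that 4 against 4 libraries can give. In X1 the transcript stayed at 1.51 to 13.98 normalized TPM, with log2 changes of 0.66 and 0.75 that did not pass the test. At 1dS X2 was not the highest population for comp372, so its place in the list rests on the starved times. Its rise in X2 is therefore no independent test.

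comp18079 was close to absent outside X2. It stood in X2 at 0, 4.39, 4.38 and 6.49 normalized TPM at 1dS, where the 0 belongs to replicate 1, at 15.2, 17.1, 17.5 and 12.7 at 7dS and at 20.6, 23.1, 21.3 and 12.6 at 30dS. The log2 change was 2.11 ± 0.49 (SE, limma adjusted p = 0.0227) at 7dS and 2.38 ± 0.49 (SE, limma adjusted p = 0.0097) at 30dS. In X1 no library exceeded 0.438, and in Xins 6 of 12 libraries listed it at 0 and none exceeded 0.137. comp7616 stood in X2 at 1.55, 1.92, 2.49 and 2.202 at 1dS, 7.399, 4.73, 13.7 and 3.05 at 7dS and 24.4, 20.3, 60.4 and 13.6 at 30dS. All libraries of 30dS lay above those of 7dS except for the overlap of 13.6 at 30dS with 13.7 at 7dS, and the log2 change against 1dS was 3.13 ± 0.43 (SE, limma adjusted p = 0.00227). A pseudocount of 1 understates the change of transcripts at levels this low. In rescaled TPM, no X2 library of 1dS reached the minimum X2 level of the rule for comp18079 or comp7616. Both met that minimum only through the libraries of 7dS and 30dS. The rises of comp18079 and comp7616 in X2 are therefore no independent test, and their p-values are descriptions.

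Of the 6 leaders, comp332 and comp478 fell in X2. comp332 stood at 1138, 1614, 1061 and 1703 normalized TPM at 7dS and 1399, 2272, 1523 and 1633 at 30dS, against 4040.1, 3105, 4925 and 2532 at 1dS. No library of either starved time reached the lowest of 1dS, and the log2 change was -1.39 ± 0.30 (SE, limma adjusted p = 0.0156, exact permutation p = 0.0286) at 7dS and -1.08 ± 0.30 (SE, limma adjusted p = 0.0324, exact permutation p = 0.0286) at 30dS. comp478 stood at 1980.1, 2559, 2275 and 2404 at 7dS, below all of 5010.5, 5479, 5573 and 3364 at 1dS, with a change of -1.05 ± 0.28 (SE, limma adjusted p = 0.037, exact permutation p = 0.0286). At 30dS it stood at 2257, 3272, 3859.8 and 2447, which overlapped with 1dS, and the change was -0.72 ± 0.28 (SE, limma adjusted p = 0.109). On rescaled libraries the change of comp478 at 7dS (-0.63) and that of comp332 at 30dS (-0.61) no longer passed the test, and comp332 at 30dS did not after quantile normalization either (-0.55). The calls of comp478 at 7dS and of comp332 at 30dS were also lost without replicate 1 of the starved time (limma adjusted p = 0.101 and 0.103).

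The other 4 leaders did not pass the test in X2. At 7dS their log2 changes were -0.88 (limma adjusted p = 0.203) for comp69, -0.86 (limma adjusted p = 0.367) for comp61, -0.77 (limma adjusted p = 0.266) for comp363 and -0.81 (limma adjusted p = 0.276) for comp213. comp61 shows the spread: it stood in X2 at 11821, 11465, 18115 and 6039 normalized TPM at 7dS, against 22509, 20299, 43487 and 8084 at 1dS. The 2 groups overlapped widely, and replicate 4 was the lowest library in each. At 30dS the changes were -0.57 for comp69, -0.51 for comp61, -0.39 for comp363 and -0.40 for comp213, and their sign depends on the scale. On rescaled libraries they were -0.10, -0.04, 0.07 and 0.06 in the same order, and after quantile normalization 0.05, 0.05, 0.14 and 0.14.

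Of the members of lower level, comp31536 and comp33176 fell at 30dS. comp31536 stood in X2 at 11.1, 12.9, 13.9 and 6.13 normalized TPM at 30dS, against 30.9, 32.5, 16.7 and 46.4 at 1dS, with a log2 change of -1.41 ± 0.33 (SE, limma adjusted p = 0.0168), which the rescaled libraries did not keep past the threshold. comp33176 stood at 3.11, 6.82, 7.78 and 3.95 at 30dS, against 25.6, 31.96, 11.1 and 15.2 at 1dS, with a change of -1.73 ± 0.37 (SE, limma adjusted p = 0.0115). In both, every library of 30dS lay below every library of 1dS.

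Between the starved times no difference was called. limma called 0 of the 200 members between 30dS and 7dS in either direction, where 0.12% of all transcripts tested were higher and 0.00667% lower. At an unadjusted p under 0.05, 5 members were higher and 7 lower. The median log2 difference was 0.07, with quartiles of -0.08 and 0.20.

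In X1, members that changed with starvation mostly fell. Of 187 members with a mean of at least 1 in X1, 25 fell and 7 rose at 7dS, or 13.4% and 3.74%, against 6.92% and 6.77% of all 13269 transcripts tested there. At 30dS, 23 fell and 6 rose, or 12.3% and 3.21%, against 4.36% and 5.43% of all. Of the transcripts at 10 TPM or more in X2, 10.8% fell and 5.98% rose in X1 at 7dS, and 6.02% fell and 6.16% rose at 30dS. The median change of the members was -0.30 at 7dS and -0.30 at 30dS, that of all transcripts tested 0.04 and -0.07, and that of transcripts at 10 TPM or more in X2 -0.12 and -0.09. On rescaled libraries, where the median of all shifts to 0.20 at 7dS and 0.04 at 30dS, 10 fell and 6 rose at 7dS and 13 fell and 7 rose at 30dS. Without 1 library the totals ranged between 17 and 38 at 7dS, and fell to 21, 17 and 19 without X1 at 1dS replicate 2, at 1dS replicate 3 or at 7dS replicate 2. At 30dS the total was 18, 18 and 17 without X1 at 1dS replicate 3, at 30dS replicate 1 or at 30dS replicate 2. For the rescaled libraries and for fits without 1 library, the share of all transcripts called is not given here.

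All 6 leaders fell in X1. comp332 stood there at 72.9, 34.7, 29.1 and 62.04 normalized TPM at 7dS and 39.5, 44.2, 34.2 and 63.7 at 30dS, against 252, 405, 231 and 137 at 1dS. The groups did not overlap, and the log2 change was -2.34 ± 0.36 (SE, limma adjusted p = 0.00432, exact permutation p = 0.0286) at 7dS and -2.41 ± 0.36 (SE, limma adjusted p = 0.00442, exact permutation p = 0.0286) at 30dS. comp3549, at place 8 of the list, stood in X2 at 312 rescaled TPM on average. In X1 it stood at 13.4, 6.69, 7.36 and 9.93 at 7dS and 3.296, 7.68, 5.46 and 11.1 at 30dS, against 53.96, 27.8, 61.7 and 17.8 at 1dS. Its log2 change was -1.88 ± 0.40 (SE, limma adjusted p = 0.0189) and -2.33 ± 0.40 (SE, limma adjusted p = 0.00845). The changes of the other leaders in X1 were -1.82 (limma adjusted p = 0.00442) for comp478, -1.91 (limma adjusted p = 0.00977) for comp69, -1.92 (limma adjusted p = 0.0183) for comp61, -1.96 (limma adjusted p = 0.00983) for comp363 and -1.68 (limma adjusted p = 0.029) for comp213 at 30dS. At 7dS the calls of comp69 and comp213 were lost on rescaled or quantile normalized values, that of comp213 (-1.33) also without X1 at 1dS replicate 1 or 3 or at 7dS replicate 2, 3 or 4 (limma adjusted p of 0.104 to 0.145). That of comp61 (-1.41) was lost without X1 at 1dS replicate 3 or at 7dS replicate 2 or 4 (limma adjusted p of 0.108 to 0.125) and with the compared times alone.

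Fewer members rose in X1. comp5394 rose in X1 and in X2. In X1 it stood at 17.3, 21.01, 16.3 and 18.5 normalized TPM at 7dS and 20.6, 21.9, 22.1 and 20.1 at 30dS, against 9.497, 10.2, 9.17 and 12.1 at 1dS. In X2 it stood at 42.1, 41.98, 42.6 and 39.2 at 7dS and 44.8, 52.6, 49.1 and 39.5 at 30dS, against 22.9, 21.7, 20.3 and 24.1 at 1dS. No starved library overlapped with 1dS in either gate. The log2 change was 0.78 ± 0.14 (SE, limma adjusted p = 0.00746) and 0.99 ± 0.14 (SE, limma adjusted p = 0.00292) in X1, and 0.87 ± 0.16 (SE, limma adjusted p = 0.00831) and 1.03 ± 0.16 (SE, limma adjusted p = 0.00307) in X2. In Xins it stood between 11.3 and 18.96 at all times. comp6020 stood in X1 at 29.1, 48.8, 34.8 and 50.8 at 7dS, against 19.5, 22.5, 15.99 and 20.7 at 1dS, with a change of 0.99 ± 0.19 (SE, limma adjusted p = 0.012). comp8588 stood in X1 at 22.5, 24.98, 19.4 and 18.8 at 30dS, against 12.98, 12.4, 13.4 and 12.5 at 1dS, with a change of 0.69 ± 0.14 (SE, limma adjusted p = 0.0188).

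In Xins, 170 members had a mean of at least 1. At 7dS, 16 fell and 0 rose compared to 1dS, 9.41% of those tested, against 3.06% lower and 2.05% higher among all 16996 transcripts tested. No member was higher even at an unadjusted p under 0.05. At 30dS, 21 fell and 2 rose, or 12.4% and 1.18%, against 3.85% and 3.31% of all. Transcripts at 10 TPM or more in X2 also mostly fell where they changed in Xins, with 6.25% lower and 0.557% higher at 7dS, and 7.16% lower and 1.54% higher at 30dS. The median change was -0.28 at 7dS and -0.38 at 30dS, against 0.05 and -0.01 over all transcripts tested and -0.17 and -0.11 over those at 10 TPM or more in X2. With the replicate number as a block over all 12 Xins libraries, 49 fell and 1 rose at 7dS. Same-numbered libraries deviated together between 7dS and 1dS, but not in every pair of 30dS and 1dS (replicate 2, correlation -0.23). The share of all transcripts called with this block is not given here, so the count is not read as a trait of the members. On rescaled libraries, where the median of all shifts to 0.38 at 7dS, 2 fell and 1 rose, and the median of the members was 0.08. Without Xins at 1dS replicate 1, at 7dS replicate 1 or at 7dS replicate 2 the count at 7dS was 8, and without 7dS replicate 3 it was 9. Without Xins at 1dS replicate 1, at 30dS replicate 1 or at 30dS replicate 2 the count at 30dS was 15, 13 and 14. The share of all transcripts called on rescaled libraries or without 1 library is not given here either.

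comp3044 fell in Xins with little spread. It stood at 24.01, 23.5, 19.7 and 22.1 normalized TPM at 7dS and 20.9, 26.6, 26.5 and 23.5 at 30dS, against 55.5, 58.7, 59.6 and 51.5 at 1dS. Starved and 1dS libraries did not overlap, with log2 changes of -1.30 ± 0.14 (SE, limma adjusted p = 0.00156) and -1.18 ± 0.14 (SE, limma adjusted p = 0.0017), of which the change at 7dS missed the threshold on rescaled libraries (-0.89). comp1161 (dresden_comp1161_c1_seq1) fell in Xins and, at 7dS, rose in X2. In Xins it stood at 34.7, 27.2, 13.9 and 14.96 at 1dS, 6.94, 5.24, 7.72 and 11.4 at 7dS and 2.42, 2.07, 4.01 and 2.89 at 30dS. In X2 it stood at 84.5, 87.1, 50.03 and 123 at 1dS, 127, 198, 181 and 125 at 7dS and 90.2, 89.5, 131 and 103 at 30dS. Xins libraries of 30dS lay below all of 1dS and 7dS, while X2 libraries of 7dS lay above all of 1dS. The change in Xins was -1.37 ± 0.31 (SE, limma adjusted p = 0.0401) at 7dS and -2.55 ± 0.31 (SE, limma adjusted p = 0.0017) at 30dS, and that in X2 at 7dS was 0.90 ± 0.27 (SE, limma adjusted p = 0.0576). The call in Xins at 7dS was lost on rescaled libraries (-0.98) and without Xins at 1dS replicate 1 or 2 or at 7dS replicate 1 or 2 (limma adjusted p of 0.101 to 0.112). comp493 stood in Xins at 9.63, 39.2, 28.99 and 30.4 at 30dS, against 69.2, 90.5, 93.3 and 128 at 1dS, with a change of -1.90 ± 0.49 (SE, limma adjusted p = 0.0571), a call that was lost on rescaled libraries (-1.64) and without Xins at 1dS replicate 2, 3 or 4 or at 30dS replicate 1 (limma adjusted p of 0.114 to 0.168).

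Between 30dS and 7dS limma called 0 of 187 members in X1, where 0% of all transcripts tested were higher and 0.00754% lower, and 0 of 170 in Xins, where 0.124% were higher and 0.0177% lower. At an unadjusted p under 0.05, 6 members were higher and 5 lower in X1, and 3 higher and 7 lower in Xins. With the replicate number as a block, 2 members were higher and 2 lower in Xins, and the share of all transcripts with this block is not given here.

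Whether starvation changed the members differently in X2 than in the other populations was tested with interaction terms in a fit of all 36 libraries after rescaling. Without a replicate block, all members past the threshold differed in one direction, with a change in X2 above that in the other population. Against X1, 6 of 200 did so at 7dS and 13 at 30dS, or 3% and 6.5%, where 1.27% and 2.55% of all 17034 transcripts tested had a positive and 0.235% and 0.17% a negative difference. Against Xins, 12 did so at 7dS and 23 at 30dS, or 6% and 11.5%, where 1.43% and 2.55% of all had a positive and 0.869% and 0.904% a negative difference. limma called 0 negative differences in the 4 comparisons, and at an unadjusted p under 0.05 there were 0 and 1 against X1 at 7dS and 30dS, and 4 and 0 against Xins. Of the 6694 transcripts at 10 TPM or more in X2, 1.54% and 1.94% had a positive difference against X1 at 7dS and 30dS, and 1.99% and 2.94% against Xins. Libraries of the same replicate number deviated together across populations at 7dS and 30dS but not at 1dS, so a block could pair the libraries only in part. With the replicate number within each time as a block, 43 members had a positive and 2 a negative difference against X1 at 7dS, and 58 and 1 at 30dS. Against Xins 41 were positive and 6 negative at 7dS, and 64 and 6 at 30dS. The shares of all transcripts given above belong to the fit without a block. Those with the block are not given here, so the block counts are not read as a trait of the members.

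The median difference of the members against X1 was 0.51 at 7dS and 0.56 at 30dS, that of all transcripts tested 0.15 and 0.31. Against Xins the medians were 0.23 and 0.47 for the members, and -0.04 and 0.16 for all. The rule averaged over the 3 times, so a transcript in excess in X2 at 7dS and 30dS alone could enter the list through these times, and the direction of these differences is not independent of the choice. Of the 13 and 23 members called at 30dS, 11 and 17 had Xins as their second population. Without X2 at 1dS replicate 1 the counts were 5 and 8 against X1 at 7dS and 30dS, and 7, of which 1 was negative, and 18 against Xins. Without X2 at 1dS replicate 4 they were 21 and 21 against X1, and 18 and 35 against Xins. The count against X1 at 30dS was 8 without X1 at 30dS replicate 1, 2 or 3, X2 at 1dS replicate 3 or X2 at 30dS replicate 1, and 20 without X1 at 30dS replicate 4. That against Xins at 7dS was 6 without X2 at 1dS replicate 3, Xins at 1dS replicate 2 or Xins at 7dS replicate 1, and 7 without Xins at 1dS replicate 1. For these fits without 1 library, the share of all transcripts is not given here.

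**Figure D4:**
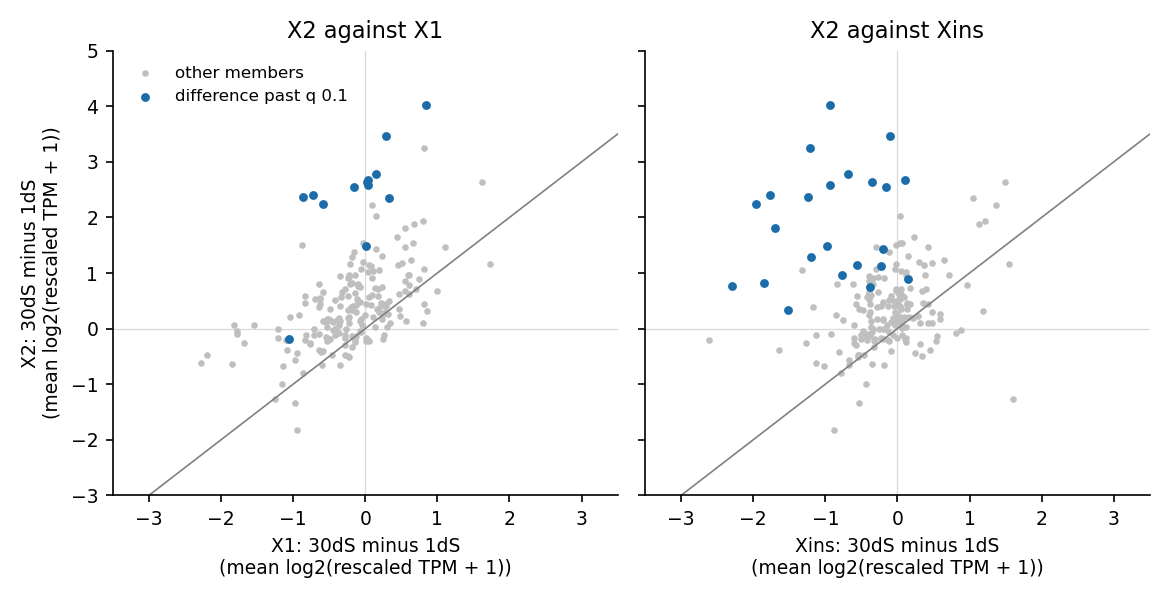
Change at 30dS minus 1dS in X2 (vertical axis) against the change in X1 (left) or Xins (right), as differences of mean log2(rescaled TPM + 1), with 1 point per member. Blue points passed a limma adjusted p of 0.1 for the difference between the populations, and the grey line marks equal changes. All blue points, 13 against X1 and 23 against Xins, lie above the line.

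comp561 differed in response from both X1 and Xins. In rescaled TPM, comp561 stood in X2 at 35.3, 52.8, 28.8 and 61.4 at 1dS, 224, 147, 179 and 141 at 7dS and 176, 231, 321 and 213 at 30dS. In X1 it stood at 31.6, 17.2, 16.5 and 24.8 at 1dS, 6.896, 12.4, 10.3 and 7.04 at 7dS and 7.804, 12.3, 14.2 and 19.2 at 30dS. In Xins it stood at 48.7, 49.7, 26.3 and 43.4 at 1dS, 10.2, 42.5, 57.4 and 26.1 at 7dS and 6.14, 28.2, 26.5 and 2.89 at 30dS. X2 was higher in every library of the starved times than at 1dS, X1 was lower in every library of 7dS, and Xins overlapped at 7dS. The difference in log2 change was 3.17 ± 0.67 (SE, limma adjusted p = 0.0125) against X1 and 2.46 ± 0.67 (SE, limma adjusted p = 0.0547) against Xins at 7dS, the second of which missed the threshold without X2 at 1dS replicate 1 or 3, X2 at 7dS replicate 1, Xins at 1dS replicate 1 or 2, or Xins at 7dS replicate 1 (limma adjusted p of 0.1002 to 0.153). At 30dS it was 3.13 ± 0.67 (SE, limma adjusted p = 0.00951) against X1 and 4.18 ± 0.67 (SE, limma adjusted p = 0.000259) against Xins. X2 and Xins overlapped at 1dS, so the place of comp561 in the list rests mainly on the starved times. These values are thus no independent test.

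comp554 had a like pattern at a higher level. It stood in X2 at 416, 272, 392 and 254 rescaled TPM at 7dS, against 77.4, 106, 78.8 and 105 at 1dS, and in X1 at 27.3, 31.05, 33.9 and 19.4 at 7dS, against 55.1, 55.2, 44.2 and 69.1 at 1dS. X2 libraries of 7dS were all higher and X1 libraries of 7dS all lower than at 1dS, and the difference was 2.82 ± 0.69 (SE, limma adjusted p = 0.0389) against X1, which missed the threshold on the deposited scale (2.61). Against Xins it was 2.19 ± 0.69 (SE, limma adjusted p = 0.128) at 7dS and 4.22 ± 0.69 (SE, limma adjusted p = 0.000371) at 30dS. For comp554 too, X2 and Xins overlapped at 1dS and the place in the list rests mainly on the starved times, so its differences are no independent test. comp1213, one of the 7 members not highest in X2 at 1dS, stood in X2 at 120.0, 117, 184 and 195 at 30dS, against 15.2, 38.3, 21.1 and 51.8 at 1dS. In X1 it stood at 5.58, 7.19, 7.93 and 14.7 at 30dS, against 17.4, 15.3, 11.8 and 20.2 at 1dS, and the difference at 30dS was 3.22 ± 0.59 (SE, limma adjusted p = 0.00231) against X1 and 3.60 ± 0.59 (SE, limma adjusted p = 0.000343) against Xins. The place of comp1213 in the list rests on the starved times, so these values describe it and are no independent test.

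comp9259 separated X2 from Xins. It stood in X2 at 48.8, 50.1, 33.4 and 49.3 rescaled TPM at 7dS and 59.9, 43.7, 37.4 and 58.7 at 30dS, against 8.94, 18.2, 6.08 and 29.2 at 1dS. In Xins it stood at 0.994, 1.71, 0.747 and 2.75 at 7dS and 0.854, 1.22, 0.4095 and 1.57 at 30dS, against 6.25, 6.43, 2.53 and 7.68 at 1dS. All starved libraries of X2 were above and all but 1 of those of Xins below the libraries of 1dS, and the difference was 3.07 ± 0.47 (SE, limma adjusted p = 0.000327) at 7dS and 3.51 ± 0.47 (SE, limma adjusted p = 3.14e-05) at 30dS.

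The largest differences against Xins at 30dS were those of comp372 and comp1700. comp372 stood in X2 at 188, 154, 262 and 262 rescaled TPM at 30dS, against 2.35, 16.4, 11.1 and 39.5 at 1dS, and in Xins at 1.28, 10.7, 14.3 and 5.15 at 30dS, against 4.77, 35.3, 11.5 and 11.6 at 1dS. Its difference at 30dS was 4.96 ± 0.93 (SE, limma adjusted p = 0.00156) against Xins and 3.19 ± 0.93 (SE, limma adjusted p = 0.0766) against X1. The place of comp372 in the list rests on the starved times too, so these values are no independent test. The difference against X1 was lost with a pseudocount of 0.1 (3.17), and without X1 at 1dS replicate 1, 3 or 4, X1 at 30dS replicate 1, 2 or 3, X2 at 1dS replicate 1 or 3, or X2 at 30dS replicate 1, 3 or 4 (limma adjusted p of 0.103 to 0.219). comp1700 stood in X2 at 225, 158, 529 and 194 at 30dS, against 18.02, 30.3, 28.1 and 25.2 at 1dS, and in Xins at 0.736, 7.74, 22.8 and 2.09 at 30dS, against 18.8, 17.2, 13.03 and 5.32 at 1dS. Replicate 3 was the highest library of 30dS in both populations, and the difference was 4.46 ± 0.90 (SE, limma adjusted p = 0.0035).

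In the fit without a block, no leader had a called difference in response. The change at 30dS in X2 minus that in X1 was 1.43 ± 0.62 (SE, limma adjusted p = 0.367) for comp478 and 1.66 ± 0.64 (SE, limma adjusted p = 0.266) for comp332, so a fall of X1 beyond that of X2 was not shown for either. Against Xins these differences were 0.34 ± 0.62 (SE, limma adjusted p = 0.975) and 0.51 ± 0.64 (SE, limma adjusted p = 0.924). Against X1 at 30dS the difference was 1.68 (limma adjusted p = 0.353) for comp69 and 1.74 (limma adjusted p = 0.331) for comp61. It was 1.90 (limma adjusted p = 0.103) for comp363 and 1.60 (limma adjusted p = 0.371) for comp213. A fall of X1 beyond that of X2 was thus not shown for these leaders.

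**Figure D5:**
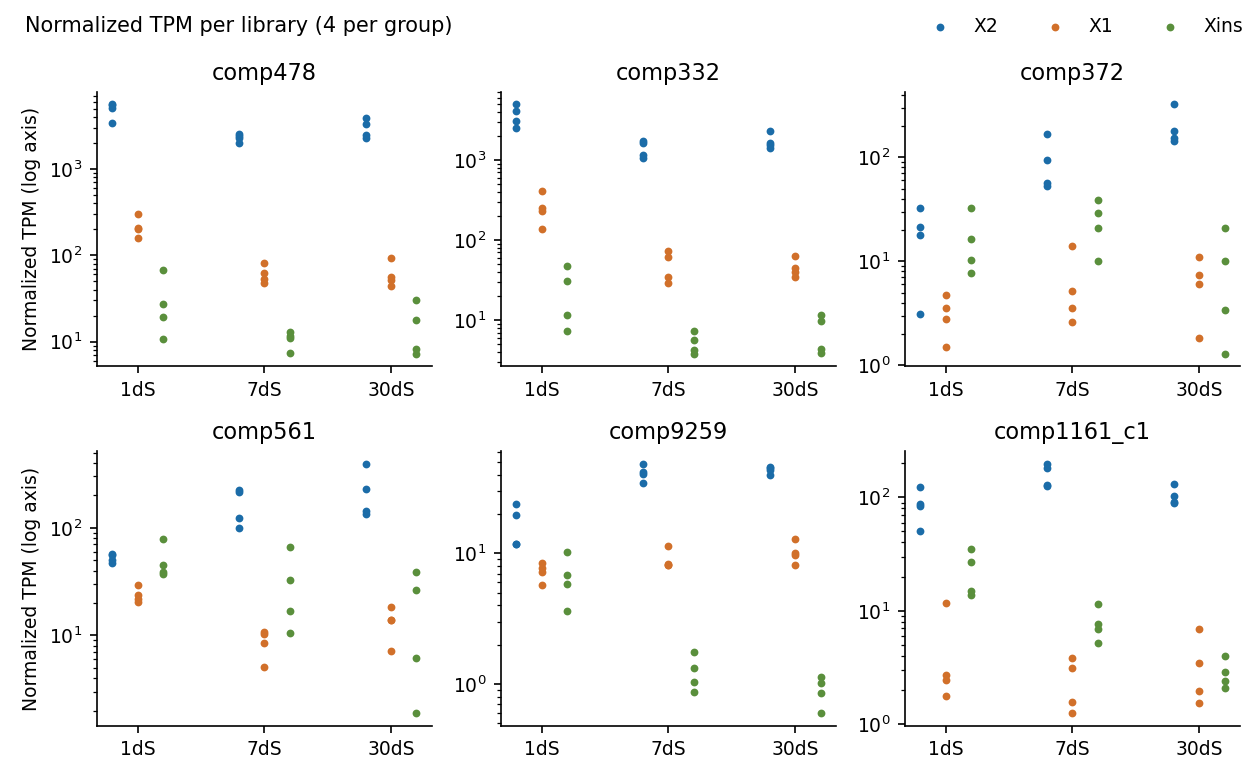
Normalized TPM of 6 members in every library at 1dS, 7dS and 30dS on log axes, with 4 points per group, X2 in blue, X1 in orange and Xins in green. comp478 and comp332 are lower in X1 at both starved times than at 1dS, comp372, comp561 and comp9259 are higher in X2 at both starved times, and comp1161_c1 is lower in Xins at 30dS than at 1dS. Levels of different populations come from tables that were normalized separately.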

How the data were processed

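RNA was sequenced from X2, X1 and Xins cells sorted by FACS, with 36 libraries in all. The deposited signal is the TPM that the authors estimated with kallisto 0.43.0 on the Dresden transcriptome and normalized in Sleuth, in a separate table for each population. Ribosomal reads had been removed. TPM keep no depth, so the depth per library is unknown and no count test was used.

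Members were found by the rule on rescaled libraries. The members and gene lists were chosen with earlier results of these data known. Times were compared within a population with limma 3.58.1 in R 4.3.3, with an intensity trend, on log2(normalized TPM + 1), for transcripts whose mean in the libraries of the fit reached 1, two-sided, at a Benjamini-Hochberg q of 0.1 over all transcripts tested. Differences in response were interaction terms over the 36 rescaled libraries, with the same filter and q. Single transcripts were also compared with exact two-sided permutation tests over 70 arrangements of 4 against 4 libraries. A fold change on this scale understates that of low transcripts. The fits were tested on simulated data. Tables were read with pandas 2.3.3, and plots drawn with matplotlib 3.10.9.

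Named were the members with a symbol, the 6 with the largest margin, the 3 on each side of the threshold, for each comparison of times the 2 members that rose most and the 2 that fell most, past the threshold, whose libraries do not overlap and whose mean is at least 10, and for each difference in response the 2 largest of each sign past the threshold.

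Replicate numbers are not stated to pair the libraries. As a check, deviations from group means were correlated between libraries of the same number. All 4 correlations exceeded 0.1 for Xins at 7dS and 1dS, for Xins at 30dS and 7dS and for X1 at 30dS and 7dS, and not for any comparison in X2. Between populations they exceeded 0.1 at 7dS (lowest 0.485) and at 30dS (lowest 0.189) but not at 1dS (lowest -0.24), so the differences in response, which include 1dS, are paired in part. Alternatives were another scale (rescaled, deposited or quantile normalized), a pseudocount of 0.1, no filter, the libraries of the compared times alone, a replicate block, each library left out in turn, and other settings of the rule.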

Additional observations from a re-analysis of the deposited data

Results flagged for a closer look

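Among 105 groups of 4 libraries, 3 held a library far from the others. Chance gives about 1 in 20 such groups. The summed level of the members in X1 at 30dS was 0.601% of the library in replicate 1, against 0.901%, 0.904% and 0.897% in the other replicates, a gap of 0.978 of the group's range. comp1213 stood in X2 at 1dS at 20.2 normalized TPM in replicate 1, against 41.5, 40.9 and 42.2 in the others, a gap of 0.940 of the range. That is the library that stood apart with the most transcripts at 0. comp1700 stood in X2 at 30dS at 649 normalized TPM in replicate 3, against 170, 158 and 131 in the others, a gap of 0.924 of the range.

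The response to starvation in X2 differed from that in another population, by the interaction term, for 6 members against X1 and 12 against Xins at 7dS, and for 13 and 23 at 30dS. Every called member had a positive difference. Of all 17034 transcripts tested, 1.27% and 1.43% had one against X1 and Xins at 7dS, and 2.55% against each at 30dS. The same libraries chose the members, so the direction of these differences is not independent of the choice. The largest at 7dS were comp561 (3.17) and comp554 (2.82) against X1, and comp9259 (3.07) and comp561 (2.46) against Xins, each a difference of log2 changes. At 30dS they were comp1213 (3.22) and comp372 (3.19) against X1, and comp372 (4.96) and comp1700 (4.46) against Xins.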

How the results depend on the processing

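No named change or difference past the threshold changed direction under any alternative. Among the alternatives that keep every library, changes that had not passed it did: on rescaled libraries comp13521 (0.34) and comp3506 (0.08) in X2 at 7dS and comp363 (0.07) and comp213 (0.06) in X2 at 30dS, and after quantile normalization the last 2 and comp69 and comp61 in X2 at 30dS. Of 56 named changes and differences, 39 passed the threshold, and of these calls 8 were lost on rescaled libraries, 3 with quantile normalization, 2 with the compared times alone, 1 without a filter, 1 with a pseudocount of 0.1 and 1 on the deposited scale. Each named change or difference was refitted without each library in turn, which gave 704 pairs of a result and a library. The call was lost in 35 of these pairs and gained in 9. The losses fell on few results. They were comp478 and comp332 in X2, comp61 and comp213 in X1, comp1161 and comp493 in Xins, and the differences of comp372 against X1 and comp561 against Xins. Counts of called members moved more. With a replicate block, 92 members were called in X2 at 7dS and 95 at 30dS against 1dS and 6 between 30dS and 7dS, 59 in X1 at 7dS, 50 in Xins at 7dS, 67 at 30dS and 4 between 30dS and 7dS, and the differences in response numbered 45 and 59 against X1 and 47 and 70 against Xins at 7dS and 30dS. In X2, in comparisons of X1 with 1dS, and in Xins between 30dS and 1dS, not all 4 correlations of same-numbered libraries exceeded 0.1. In X2 between 30dS and 7dS they were -0.06, 0.25, 0.84 and 0.90 for replicates 1 to 4, so these libraries are paired in part. The main fits use no block. The differences in response are paired in part, since same-numbered libraries of different populations deviated together at the starved times but not at 1dS. Of the named calls, the block gained 9 and lost 0. The counts with the block and under the other alternatives stand without the share of all transcripts called there, so they are not read as a trait of the members. With the compared times alone, 25 members were called in X2 at 7dS, 18 in X1 at 30dS and 6 in Xins at 7dS. On rescaled libraries 16 were called in X1 at 7dS, 3 in Xins at 7dS, 11 in Xins at 30dS and 1 in X2 between 30dS and 7dS, where quantile normalization and no filter also called 1. Differences against X1 at 7dS numbered 15 on the deposited scale and 17 after quantile normalization, those against Xins at 7dS 24 and 32, and 6 with a pseudocount of 0.1, and those against Xins at 30dS 35 after quantile normalization. Leaving out 1 library gave 25 to 67 members in X2 at 7dS, 29 to 69 in X2 at 30dS, 17 to 38 in X1 at 7dS, 17 to 29 in X1 at 30dS, 8 to 16 in Xins at 7dS, 13 to 21 in Xins at 30dS, and 0 to 1 in Xins between 30dS and 7dS, where 1 was called without 7dS replicate 4. Differences then numbered 4 to 21 against X1 and 6 to 18 against Xins at 7dS, and 8 to 21 and 18 to 35 at 30dS. The summed level of the members was 94771 TPM in X2 at 1dS and 9598 TPM in Xins at 1dS as deposited, against 72361 and 7441 TPM after rescaling. Of the 200 members, 196 remained with a pseudocount of 0.1 in the rule, 195 on the deposited scale, 180 with medians, 149 with a minimum of 5 TPM, 153 with a minimum of 20 TPM, and 184 to 191 without 1 replicate number. The causes were not tested. Depth is unknown, so transcripts near 0 cannot be judged by counting error.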
